A study of Mus musculus with 6 samples.

Results

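The galectins and their secreted ligand were followed in bulk RNA-seq of splenic Tregs, the Foxp3-dependent CD4+ lymphocytes that hold immune responses in check. The set holds 5 genes, Lgals1, Lgals3, Lgals8, Lgals9 and Lgals3bp, taken by gene symbol from a deposited table of 15944 genes, and each of the 5 had 1 row. The 3 libraries of RORγt+ Tregs came from cells sorted as CD3+CD4+, positive for a red reporter of Foxp3 and positive for a green reporter of the transcription factor RORγt. The 3 libraries of CCR6+RORγt- Tregs came from cells with the same Foxp3 reporter, negative for the RORγt reporter and positive for surface staining of the chemokine receptor CCR6. The labels also call the RORγt+ cells biTregs and the others Treg17 cells, and describe both as naïve. All came from spleens of C57BL/6 mice carrying both reporters, with CD4+ cells enriched on magnetic beads before sorting, and 500000 cells are named in the series text without saying whether per library. The labels give neither the age or sex of the mice, nor how the reporters were built, nor whether animals were pooled. Nothing links a library to an animal of its own either, and the spread behind every p-value may therefore be technical.

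Galectins are soluble lectins that bind β-galactoside sugars on glycoproteins. They are made in the cytosol, leave the cell by a route that bypasses the secretory pathway, and crosslink receptors at the cell surface. Galectin-1 (Lgals1) is a dimer of single lectin domains that is abundant in Tregs and contributes to their suppressive activity. Galectin-3 (Lgals3), the chimera type, joins a lectin domain to a proline- and glycine-rich tail through which it oligomerizes, and it is also a long-used marker of macrophages. Galectin-8 (Lgals8) and galectin-9 (Lgals9) are tandem-repeat types with a pair of lectin domains on one chain. Galectin-8 is known for recognizing damaged endosomes, and galectin-9 as a ligand of the inhibitory receptor TIM-3. Lgals3bp is no galectin: it encodes a secreted, heavily glycosylated scavenger-receptor family protein to which galectin-3 binds.

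Values are normalized counts, scaled between libraries by the authors, and differences were tested with limma on log2(value + 1), calling a gene when its p, adjusted by Benjamini-Hochberg over the whole table, was under 0.05. Each library summed to between 11325902 and 11890770 normalized counts, which by the smallest steps among low values stand for roughly 9210000 to 14500000 reads. RORγt+ replicate 3 stood apart: its log2 values correlated at 0.932 to 0.939 with those of the others, and 1247 of its genes were listed at 0, where the remaining 5 had 438 to 638. Results for the 5 genes are therefore also given without it. T cell and Treg marker genes were expressed in both sorts. Foxp3 lay between 10835 and 12609 normalized counts in RORγt+ Tregs and between 9790 and 10187 in CCR6+RORγt- Tregs. Cd4 and Cd3e averaged 10037 and 6586 in RORγt+ Tregs and 10729 and 6894 in CCR6+RORγt- Tregs. Of 9 such markers listed, 8 were measured and 0 were called. The sorts did not overlap in 4 of the 8, beside 18.1% of all genes. Foxp3, Il2ra and Ctla4 were the higher ones in RORγt+ Tregs and Cd3g the lower one. Il2ra averaged 8239 in RORγt+ Tregs and 6113 in CCR6+RORγt- Tregs (limma adjusted p = 0.349). Cd3g averaged 6727 in RORγt+ Tregs and 8081 in CCR6+RORγt- Tregs (adjusted p = 0.402). Cd3e, Ctla4 and Ikzf2 were named after their values were seen. Ikzf2 had 6358, 6181 and 1435 normalized counts in RORγt+ replicates 1 to 3, and 4784, 6205 and 7969 in CCR6+RORγt- replicates 1 to 3. Ccr6 itself was higher in RORγt+ Tregs than in the sort gated on its protein, with 698 to 900 normalized counts in RORγt+ Tregs and 112 to 148 in CCR6+RORγt- Tregs (adjusted p = 0.00554).

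The comparison asked how splenic Tregs that express RORγt differ from those that carry CCR6 without it. Lgals1 and Lgals3 rose in RORγt+ Tregs, so that 2 of the 5 genes were called higher and 0 lower, and the other 3 did not pass. Over all genes 0.564% were called, 0.32% higher and 0.245% lower. The groups did not overlap in 3 of the 5 genes, all higher in RORγt+ Tregs, and in 18.1% of all genes. The median log2 fold change of the 5 genes was 0.32, beside -0.011 over all 15944 genes. The 5 genes were chosen with earlier results of these data known, so these counts and the median are descriptive and no independent evidence. In bulk RNA, more cells of a type and more RNA per cell cannot be told apart.

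**Figure D1:**
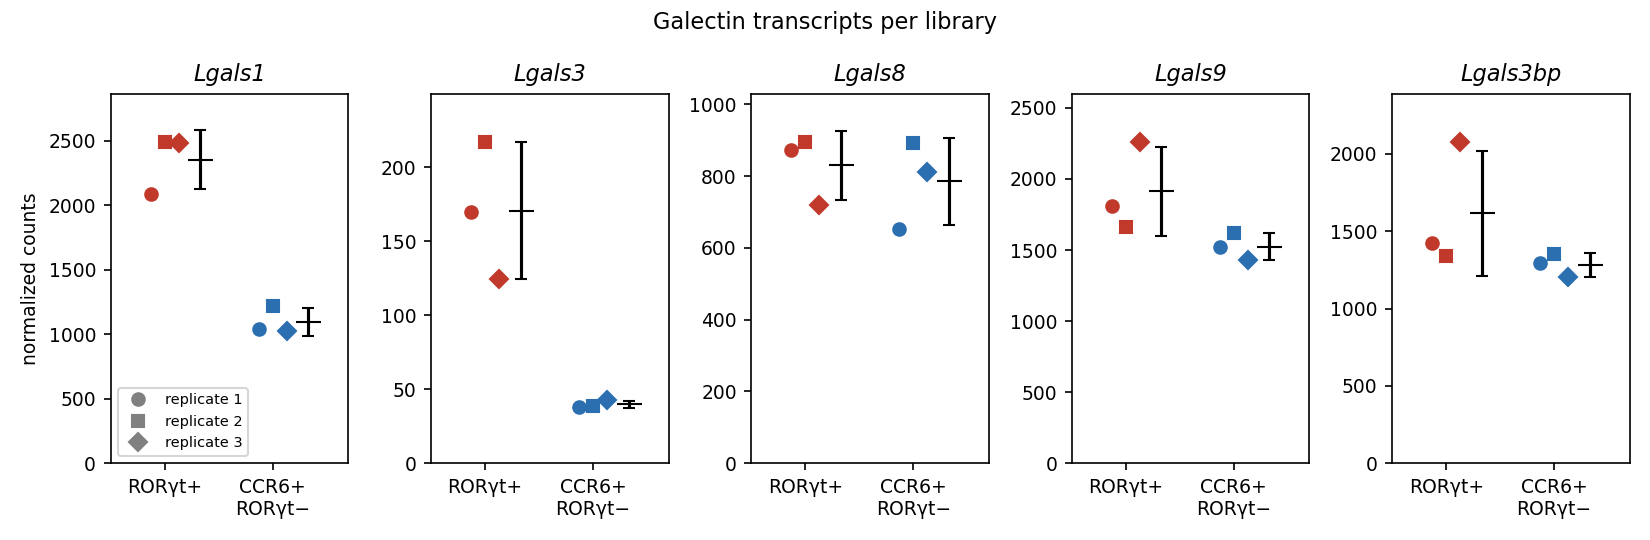
Normalized counts of the 5 genes in each library, with RORγt+ Tregs in red and CCR6+RORγt- Tregs in blue. Marker shapes give the replicate number and black bars the mean ± SD of 3 libraries; Lgals1 and Lgals3 separate widely, while Lgals8 overlaps between the sorts.

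Lgals1 (chromosome 15, 78926725 to 78930465, + strand, GRCm38) was the most abundant galectin per length in every library. It had 2086, 2492 and 2479 normalized counts in RORγt+ replicates 1 to 3, against 1037, 1220 and 1023 in CCR6+RORγt- replicates 1 to 3. Every RORγt+ library was above every CCR6+RORγt- library, and the lowest RORγt+ value lay well above the highest of the other sort. The means were 2353 ± 231 and 1093 ± 110 normalized counts (SD, n = 3 each), and the spread within a sort was alike in relative terms, at 9.80% and 10.04% of the mean. The log2 fold change was 1.10 ± 0.14 (SE, limma adjusted p = 0.0219), a 2.15-fold difference with a 95% interval of 1.73 to 2.68. Without RORγt+ replicate 3 it was 1.06 (adjusted p = 0.0248). No gene model overlaps the locus, and none of its 31-base sequence windows occurs in transcripts of another gene.

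Lgals3 (chromosome 14, 47367751 to 47386160, + strand, GRCm38) had the largest fold difference of the 5 genes from the lowest level. It had 170, 217 and 125 normalized counts in RORγt+ replicates 1 to 3, against 38.2, 38.6 and 42.5 in CCR6+RORγt- replicates 1 to 3. The CCR6+RORγt- libraries lay close together, and RORγt+ replicate 3 was the lowest of its sort but still above all of them. The means were 171 ± 46.3 and 39.8 ± 2.39 normalized counts (SD, n = 3 each). The log2 fold change was 2.04 ± 0.27 (SE, limma adjusted p = 0.026), a 4.11-fold difference with a 95% interval of 2.67 to 6.34, or 2.25 with RORγt+ replicate 3 left out (adjusted p = 0.0151). At about 37.1 reads in the shallowest case, the CCR6+RORγt- values rest on far fewer reads than those of Lgals1, which had about 1007 or more in every library. None of its windows is shared with another gene.

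The calls of Lgals1 and Lgals3 needed nearly all libraries. Leaving out RORγt+ replicate 1, RORγt+ replicate 2 or any 1 of the 3 CCR6+RORγt- libraries ended both, with limma adjusted p between 0.0631 and 0.153 for Lgals1 and between 0.115 and 0.16 for Lgals3, and between 4 and 10 genes were then called over the whole table. The log2 fold changes moved little in those fits, to between 1.06 and 1.19 for Lgals1 and between 1.85 and 2.09 for Lgals3.

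**Figure D2:**
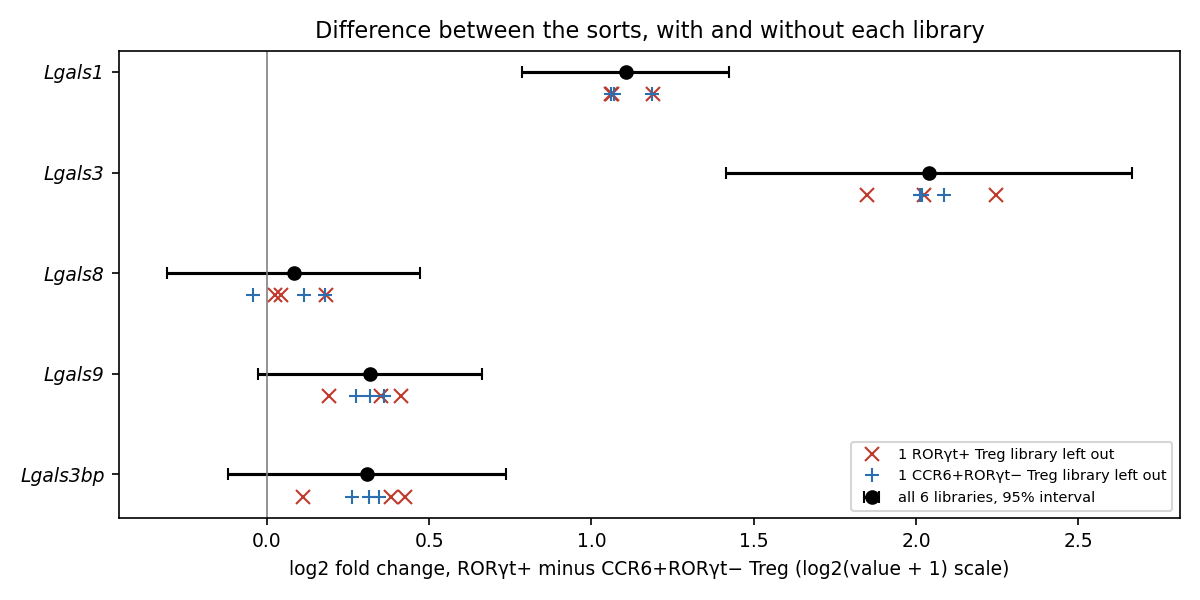
Log2 fold changes of the 5 genes, RORγt+ minus CCR6+RORγt- Tregs, with black points and bars for all 6 libraries and the 95% interval. Red crosses and blue plus signs give the value with 1 library of either sort left out; those of Lgals1 stay between 1.06 and 1.19 and those of Lgals3 between 1.85 and 2.25, whereas Lgals8 lies on both sides of 0.

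Since macrophages express Lgals3 strongly, markers of other cells were read beside it. Of 14 macrophage and monocyte markers listed, 8 were measured, none passed limma over all genes and 2 had an unadjusted p under 0.05, as did 10.9% of all genes; the other 6 were not analysed here. Their summed level ranged from 132 to 171 normalized counts in RORγt+ libraries and from 43.3 to 80.01 in CCR6+RORγt- libraries, so the sums did not overlap, and the median log2 fold change of the 8 was 1.40. The integrin subunit Itgam, also found on other leukocytes, had 55.7, 48.5 and 22.2 normalized counts in RORγt+ Tregs, against 14.3, 14.4 and 17.9 in CCR6+RORγt- Tregs (adjusted p = 0.327). Lyz2, which encodes lysozyme, had 37.1, 81.6 and 9.97 in RORγt+ Tregs, against 4.09, 23.6 and 4.10 in CCR6+RORγt- Tregs (adjusted p = 0.51). In 3 of the 8, Itgam, Fcer1g and Csf1r, the sorts did not overlap, all higher in RORγt+ Tregs, beside the 18.1% of all genes without overlap. Fcer1g had the largest log2 fold change of the 8, 2.63 (limma adjusted p = 0.261). Its values were 18.07, 10.97 and 12.45 in RORγt+ Tregs, against 1.02, 5.43 and 0 in CCR6+RORγt- Tregs. The lysosomal protein gene Cd68 had 20.1, 9.91 and 17.3 normalized counts in RORγt+ Tregs, against 18.1, 16.1 and 16.2 in CCR6+RORγt- Tregs, so its groups overlapped, and Vcam1 had 9.56, 5.95 and 38.0 in RORγt+ Tregs, against 7.42, 10.03 and 3.88 in CCR6+RORγt- Tregs. The complement gene C1qa, named like Fcer1g and Csf1r after its values were seen, was at 0 in the 3 CCR6+RORγt- libraries and in RORγt+ replicate 2, and reached 13.4 in RORγt+ replicate 3. The part of such cells in the Lgals3 difference was not tested. Summed B cell markers reached 52.1 to 290 normalized counts in RORγt+ Tregs and 21.9 to 144 in CCR6+RORγt- Tregs, and the 3 NK markers 21.8 to 59.2 in RORγt+ Tregs and 19.1 to 39.5 in CCR6+RORγt- Tregs. Of 6 dendritic cell markers 4 were measured, with sums of 13.0 to 41.5 in RORγt+ Tregs and 39.3 to 47.5 in CCR6+RORγt- Tregs. The CD8 markers Cd8a and Cd8b1 summed to 116 to 152 in RORγt+ Tregs and 99.0 to 183 in CCR6+RORγt- Tregs. The 3 measured γδ and innate type 17 markers summed to 3.13 to 29.4 in RORγt+ Tregs and 0 to 12.01 in CCR6+RORγt- Tregs, and S100a9, the 1 neutrophil marker measured, reached 17.8 in RORγt+ replicate 2 and was at 0 in the CCR6+RORγt- libraries. Haemoglobin transcripts varied most, at 125 to 856 normalized counts over 3 genes in RORγt+ Tregs and 50.5 to 4215 in CCR6+RORγt- Tregs. None of these markers passed the test. Of the markers other than macrophage ones in this paragraph, the sorts did not overlap in Zbtb46 and Siglech, dendritic cell genes lower in RORγt+ Tregs, and in Cd163l1, a γδ T cell gene higher in RORγt+ Tregs, all 3 named after their values were seen.

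The window around the RefSeq start of Lgals3 (GRCm38.p6, chr14:47373610-47373909, + strand, 250 bases before the start and 50 after it) is shown because Lgals3 changed most. It was searched on both strands for the nuclear receptor half-site AGGTCA, the core of the element bound by RORγt, for an AP-1 site TGANTCA, a GC box GGGCGG, the core promoter element TATAAA and an interferon response element core GAAANNGAA. Capitals mark the matches, which are GC boxes at positions -7 to -2 and 5 to 10, counted from the first transcribed base as 1.
Lgals3: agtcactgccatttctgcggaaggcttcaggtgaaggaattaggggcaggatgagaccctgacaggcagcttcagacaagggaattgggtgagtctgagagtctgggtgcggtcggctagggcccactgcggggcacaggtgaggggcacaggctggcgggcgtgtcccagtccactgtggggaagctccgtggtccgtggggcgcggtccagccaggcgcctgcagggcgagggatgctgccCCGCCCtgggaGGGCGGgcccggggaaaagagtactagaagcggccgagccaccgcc
The GC box occurs in 35.7% of the 32851 promoters of this length in the RefSeq table, and the half-site, of which this window holds none, in 16.3%. GENCODE places the 5′ end of the Lgals3 gene further upstream, so other start sites are not covered.

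Lgals9 (chromosome 11, 78962974 to 78984946, - strand, GRCm38) was the second galectin per length. It had 1812, 1664 and 2262 normalized counts in RORγt+ replicates 1 to 3, against 1521, 1618 and 1432 in CCR6+RORγt- replicates 1 to 3. The groups did not overlap, but RORγt+ replicate 2 exceeded CCR6+RORγt- replicate 2 only slightly, and RORγt+ replicate 3 was far above the rest. The log2 fold change of 0.32 ± 0.15 (SE, 95% interval -0.027 to 0.66) did not pass (limma adjusted p = 0.502), and leaving out RORγt+ replicate 3 lowered it to 0.19 (adjusted p = 0.365). The interval reaches up to a 1.58-fold difference.

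Lgals3bp lies on the same chromosome (118392751 to 118402092, - strand) and followed Lgals9 from library to library. It had 1425, 1343 and 2078 normalized counts in RORγt+ replicates 1 to 3, against 1294, 1351 and 1201 in CCR6+RORγt- replicates 1 to 3. The groups overlapped, and the excess of the RORγt+ mean came mostly from replicate 3. Its log2 fold change was 0.31 ± 0.18 (SE, 95% interval -0.12 to 0.74, limma adjusted p = 0.635), or 0.11 with RORγt+ replicate 3 left out (adjusted p = 0.58). Per length, the ratio of Lgals3bp to Lgals9 was 0.59, 0.606 and 0.69 in RORγt+ libraries and 0.639, 0.627 and 0.63 in CCR6+RORγt- libraries, a narrow range beside the levels themselves. The profiles of both genes over the 6 libraries, centred on the log2 scale, differed by a root mean square of 0.07, which placed Lgals3bp 49th in likeness to Lgals9 among 9056 genes with a mean of at least 100. No gene model overlaps either locus.

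Both genes are known to be induced by interferon, and their RefSeq promoter windows are shown because their values moved together (GRCm38.p6, - strand, chr11:78984875-78985174 for Lgals9 and chr11:118401910-118402209 for Lgals3bp). The same motifs were searched. Capitals mark matches to the interferon response element core, read on the opposite strand, at positions -54 to -46 and 17 to 25 of Lgals9. Lgals3bp had no exact match to any of the 5 motifs, and near matches were not sought.
Lgals9: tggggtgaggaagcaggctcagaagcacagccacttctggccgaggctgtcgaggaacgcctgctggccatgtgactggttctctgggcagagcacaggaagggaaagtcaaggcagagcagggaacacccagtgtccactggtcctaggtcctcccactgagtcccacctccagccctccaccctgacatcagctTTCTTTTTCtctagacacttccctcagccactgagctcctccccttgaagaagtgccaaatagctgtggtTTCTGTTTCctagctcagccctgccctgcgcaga
Lgals3bp: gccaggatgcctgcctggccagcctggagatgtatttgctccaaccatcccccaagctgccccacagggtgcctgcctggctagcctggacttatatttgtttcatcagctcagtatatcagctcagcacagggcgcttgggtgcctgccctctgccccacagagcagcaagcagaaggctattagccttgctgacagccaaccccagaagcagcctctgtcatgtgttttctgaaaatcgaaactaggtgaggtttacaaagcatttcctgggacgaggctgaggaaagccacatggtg
This core occurs in 8.56% of the promoters in the table.

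Lgals8 (chromosome 13, 12439415 to 12464944, - strand, GRCm38) showed no separation. It had 873, 896 and 721 normalized counts in RORγt+ replicates 1 to 3, against 654, 892 and 812 in CCR6+RORγt- replicates 1 to 3, so each sort held high and low libraries. The log2 fold change was 0.083 ± 0.17 (SE, 95% interval -0.31 to 0.47, limma adjusted p = 0.926), which leaves room for a difference of up to 1.39-fold, or 0.18 with RORγt+ replicate 3 left out (adjusted p = 0.561). Its sign turned without CCR6+RORγt- replicate 1, to -0.043. The locus overlaps Heatr1 on the opposite strand, 5.53% of the Lgals8 windows occur in transcripts of other genes, Heatr1 above all, and the sources used here do not say whether counting used strand, so its values are uncertain to that extent. Heatr1 averaged 1510 ± 844 normalized counts in RORγt+ Tregs and 1069 ± 366 in CCR6+RORγt- Tregs (SD, n = 3 each, adjusted p = 0.788).

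To set the 5 genes against each other, values were divided by the length of their merged exons in GENCODE M21. The order Lgals1, Lgals9, Lgals3bp, Lgals8, Lgals3 held in all 6 libraries, and also with the longest transcript as the length. Lgals1 averaged 2605 ± 255 normalized counts per kb in RORγt+ Tregs and 1210 ± 122 in CCR6+RORγt- Tregs (SD, n = 3 each). In RORγt+ Tregs, Lgals9 followed with 895 ± 146, Lgals3bp with 567 ± 142, Lgals8 with 225 ± 25.8 and Lgals3 with 91.8 ± 24.9. In CCR6+RORγt- Tregs the same 4 genes had 713 ± 43.5, 450 ± 26.6, 213 ± 32.8 and 21.4 ± 1.29. Within each sort no neighbours in this order overlapped in range. Lgals1 stood above 98.7% to 99.0% of genes per length in RORγt+ libraries and above 97.4% to 97.9% in CCR6+RORγt- libraries. Lgals3 stood above 57.9% to 69.3% in RORγt+ Tregs and above 35.9% to 37.4% in CCR6+RORγt- Tregs.

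The mixture of galectin transcripts differed as well. Of the summed per-length level of the 4 galectins, Lgals1 made up 66.3%, 70.8% and 67.5% in RORγt+ replicates 1 to 3, against 55.8%, 57.0% and 55.4% in CCR6+RORγt- replicates 1 to 3. Lgals3 made up 2.62%, 2.999% and 1.65% in RORγt+ Tregs, against 0.999%, 0.875% and 1.12% in CCR6+RORγt- Tregs. The shares of Lgals9, at 24.3%, 19.98% and 26.0% in RORγt+ Tregs and 34.6%, 31.9% and 32.8% in CCR6+RORγt- Tregs, and of Lgals8, at 4.81% to 6.79% in RORγt+ Tregs and 8.62% to 10.8% in CCR6+RORγt- Tregs, were lower in every RORγt+ library, although neither transcript was lower itself in mean level. These shares restate the same values and carry no separate test. The summed level was 3487, 3898 and 4067 normalized counts per kb in RORγt+ Tregs and 2058, 2370 and 2046 in CCR6+RORγt- Tregs. The ratio of Lgals1 to Lgals3 per length was 25.3, 23.6 and 40.9 in RORγt+ libraries and 55.8, 65.1 and 49.5 in CCR6+RORγt- libraries.

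**Figure D3:**
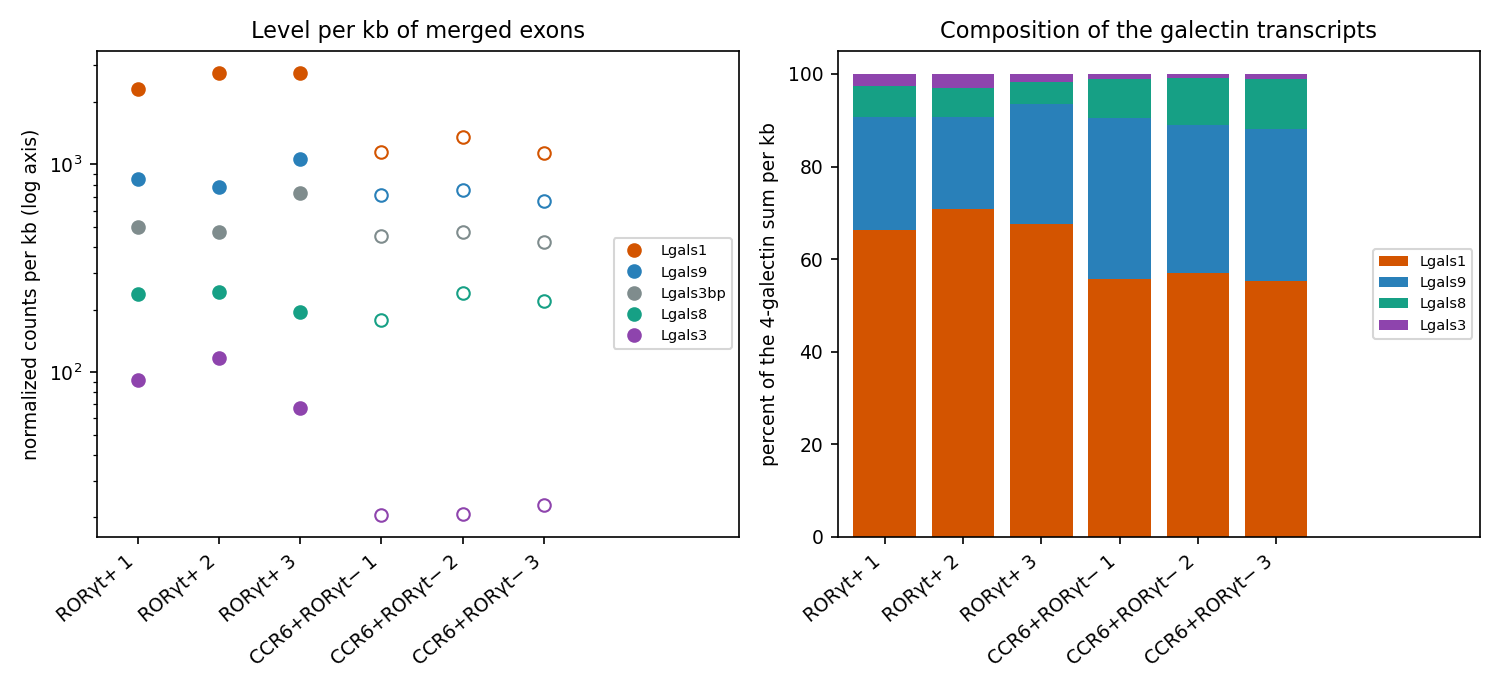
Left, level of the 5 genes per kb of merged exons in each library on a log axis, with RORγt+ libraries as filled and CCR6+RORγt- libraries as open points. Right, percent of the summed per-kb level of the 4 galectins taken by each; Lgals1 takes 66.3% to 70.8% in RORγt+ libraries and 55.4% to 57.0% in CCR6+RORγt- libraries.

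Of 7 other galectin family genes listed, 4 were measured and 0 passed limma, over all genes or at an unadjusted p under 0.05; Lgals2, Lgals6 and Lgals12 were not analysed here. The galectin-related gene Lgalsl had 90.5 to 128 normalized counts in RORγt+ Tregs and 85 to 102 in CCR6+RORγt- Tregs (limma adjusted p = 0.923). Lgals4, an intestinal tandem-repeat galectin, had 52.6 to 88.1 in RORγt+ Tregs and 45.5 to 85.1 in CCR6+RORγt- Tregs (adjusted p = 0.84). Lgals7, an epithelial galectin, had 1.31 to 10.5 in RORγt+ Tregs and 0 to 43.6 in CCR6+RORγt- Tregs, with the highest value in CCR6+RORγt- replicate 3 alone. Grifin, a lens protein of the family, had 5.03 to 21.7 in RORγt+ Tregs and 1.01 to 5.67 in CCR6+RORγt- Tregs (adjusted p = 0.601). At these levels a few reads decide the values of the last 2.

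The surface glycoproteins that galectins bind did not move together. Of 27 counter-receptors listed, all 27 were measured, of which 0 rose, 1 fell and 26 did not pass, with a median log2 fold change of -0.045 beside -0.011 over all genes. Over all genes 0.564% were called. An unadjusted limma p under 0.05 was reached by 9 of the 27, in both directions, beside 10.9% of all genes. The sorts did not overlap in 10 of the 27, 5 higher and 5 lower in RORγt+ Tregs, beside 18.1% of all genes. The member that fell was Pdcd1, which encodes PD-1, an inhibitory receptor reported to bind galectin-9. It had 433, 531 and 588 normalized counts in RORγt+ Tregs, against 1543, 1336 and 1159 in CCR6+RORγt- Tregs, without overlap (log2 fold change -1.38 ± 0.17, SE, n = 3 per group, limma adjusted p = 0.0219). Without RORγt+ replicate 3 the number called was 5 of 27, in a fit that called 174 of all 15944 genes. The 5 were Pdcd1 again, with Nrp1, Tnfrsf9 and Lag3 also lower (-0.71, -0.90 and -1.56) and Cd47 higher (0.55). The number was 0 of 27 when any other library was left out, in fits that called 4 to 10 genes. Nrp1, Tnfrsf9, Lag3 and Cd47 were named after their values were seen. Among the most abundant members, Ptprc, which encodes the phosphatase CD45, a classical galectin-1 and galectin-3 partner, had 29993, 29217 and 11077 normalized counts in RORγt+ Tregs, against 13008, 18518 and 28390 in CCR6+RORγt- Tregs, so replicates of a sort differed more than the sorts (adjusted p = 0.948). The sialomucin gene Spn, encoding CD43, had 9433, 10884 and 9988 in RORγt+ Tregs, against 8932, 8181 and 8000 in CCR6+RORγt- Tregs, with no overlap but no call (0.27, adjusted p = 0.457). Thy1 (0.34, adjusted p = 0.632) and the integrin subunit gene Itgal (-0.26, adjusted p = 0.701) overlapped between sorts. Havcr2, which encodes TIM-3 and was named after its values were seen, was scarce, at 37.3, 59.6 and 9.86 normalized counts in RORγt+ Tregs, against 14.2, 21.5 and 15.8 in CCR6+RORγt- Tregs (adjusted p = 0.775).

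Glycan enzymes build or mask the galactose ends that galectins recognize. Of 33 listed, 31 were measured, none passed limma over all genes, 4 had an unadjusted p under 0.05, as did 10.9% of all genes, and the median log2 fold change was 0.12; B4galt2 and Mgat3 were not analysed here. St6gal1, whose α2,6-linked sialic acid blocks binding of galectin-1, had 2995, 3262 and 4562 normalized counts in RORγt+ Tregs and 3088, 3358 and 2847 in CCR6+RORγt- Tregs (adjusted p = 0.771). The galactosyltransferase gene B4galt1 had 1979, 1843 and 2669 in RORγt+ Tregs, against 1616, 1584 and 1489 in CCR6+RORγt- Tregs (0.45, adjusted p = 0.37). St3gal1, a sialyltransferase of O-glycans, and Man1a, a mannosidase that trims N-glycans, had log2 fold changes of -0.072 (adjusted p = 0.884) and -0.46 (adjusted p = 0.409). Mgat5, whose branched N-glycans are preferred by galectin-3, was named after its values were seen. It had 761, 774 and 849 normalized counts in RORγt+ Tregs against 1216, 1176 and 1164 in CCR6+RORγt- Tregs, without overlap. Its log2 fold change of -0.58 ± 0.12 (SE) missed the threshold (limma adjusted p = 0.114). Without RORγt+ replicate 3 it passed (-0.63, limma adjusted p = 0.0393), in a fit that called 174 of all 15944 genes. No glycan enzyme of the list was called when any other library was left out.

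Inside the cell, galectins meet damaged endosomes, autophagy adaptors and Ras proteins. Of 22 such partners listed, 21 were measured, none passed limma over all genes, 3 had an unadjusted p under 0.05 beside the 10.9% of all genes, and the median log2 fold change was 0.041; Calcoco2, which encodes an autophagy adaptor that binds galectin-8, was not analysed here. The most abundant, the anti-apoptotic gene Bcl2, had a log2 fold change of -0.29 (adjusted p = 0.738). Pdcd6ip, which encodes the endosomal sorting adaptor ALIX, a partner of galectin-3, had 2916, 3134 and 3149 normalized counts in RORγt+ Tregs, against 3296, 2602 and 3082 in CCR6+RORγt- Tregs (adjusted p = 0.96). The autophagy receptor gene Sqstm1 and the sorting complex subunit gene Chmp4b had -0.026 and 0.029.

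**Figure D4:**
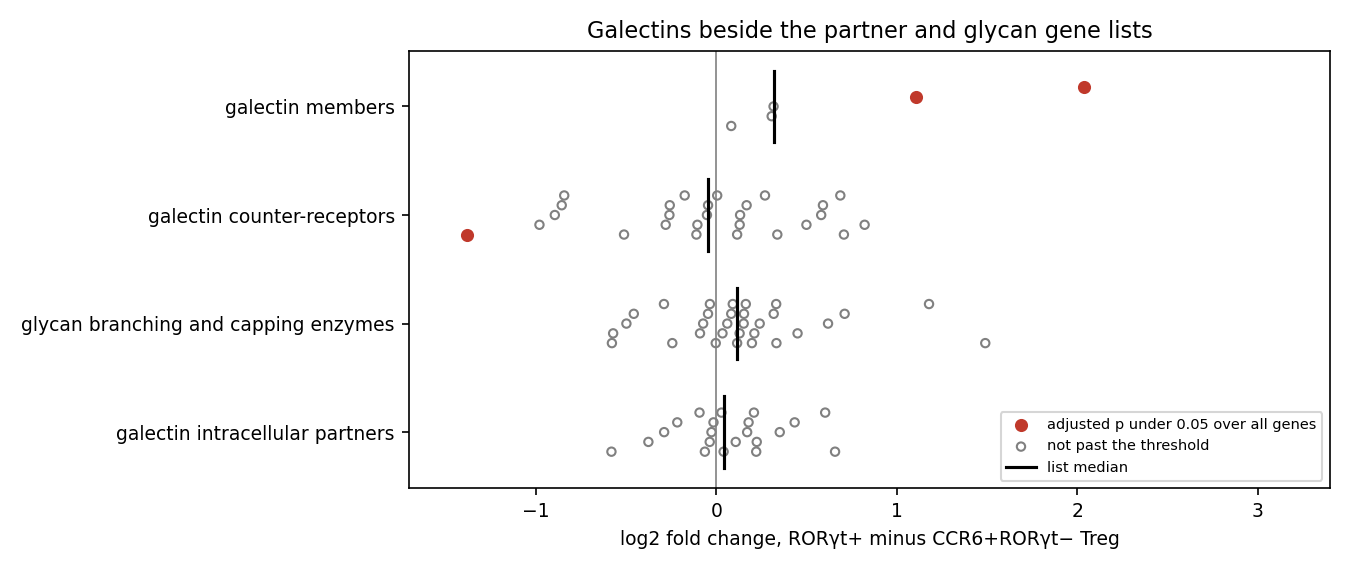
Log2 fold changes, RORγt+ minus CCR6+RORγt- Tregs, of the 5 genes and of 3 lists of their binding partners and glycan enzymes, 1 point per measured gene. Red points passed an adjusted p of 0.05 over all genes and black lines give list medians; the 3 partner lists have medians of -0.045, 0.12 and 0.041 and a single called gene, Pdcd1.

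The genes most like each member over the 6 libraries were sought by the root mean square difference of centred log2 profiles, among 9056 genes. Closest to Lgals1 were Rrm2, a ribonucleotide reductase subunit, at 0.0741, the glutaredoxin gene Glrx at 0.0933 and the phosphatase gene Acpp at 0.107, of which Glrx passed the test (log2 fold change 0.99, adjusted p = 0.0453). Rrm2 had 161, 187 and 173 normalized counts in RORγt+ Tregs and 68.8, 83.2 and 75.1 in CCR6+RORγt- Tregs, so both sorts had their highest value in replicate 2, as for Lgals1.

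Closest to Lgals3, though less close, were Rap1gap2, a regulator of the GTPase Rap1, at 0.246, the lysosomal protease gene Lgmn at 0.248 and Crybg3 at 0.258, and all 3 passed the test with log2 fold changes of 2.21, 1.72 and 1.65 (adjusted p between 0.0136 and 0.0341). Lgals1 itself was 29th in likeness to Lgals3. Closest to Lgals9 were the proton pump subunit gene Atp6v1h, the transcription factor gene Xbp1 and the mitochondrial ADP/ATP carrier gene Slc25a5, at 0.0255 to 0.0355, and closest to Lgals3bp were Tprgl, Jkamp and Trim27, at 0.0331 to 0.0369. Those 6 genes shared the high value in RORγt+ replicate 3, the library that stood apart. Closest to Lgals8 were Cab39l, Phf11a and Sdccag8, at 0.0611 to 0.0619. None of these 9 genes passed the test.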

How the data were processed

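The 6 libraries were grouped by their titles into RORγt+ Tregs (3) and CCR6+RORγt- Tregs (3). The authors deposited 1 signal value per gene and library, a normalized count with 2 decimals. Per the submitters' processing notes, the tools were Salmon 1.2.0 and DESeq2 (no version), and the build was GRCm38; their roles, strand, annotation and filters are not given. Low values gathered near multiples of 0.822 to 1.24, the value of 1 read, but 51.0% to 68.9% of values up to 20 reads lay within 0.1 read of a whole number, so reads were not recovered and read numbers are approximate. A gene near 40 normalized counts rests on about 40 reads.

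The values were analysed as log2(value + 1), without a filter, with limma 3.58.1 under R 4.3.3 (groups as the only term, empirical Bayes moderation with a mean-variance trend, two-sided, Benjamini-Hochberg over all 15944 genes, 4 residual and 3.43 prior degrees of freedom) and checked on simulated data. Fold changes are RORγt+ minus CCR6+RORγt- and understate changes of low genes. Lists are described by counts and medians, with no set test. Named genes were the 5 members, the called and the 4 most abundant genes of each list, and the 3 genes most like each member; genes outside this rule were named after their values were seen. A gene that this rule names is not reported here. The members and lists were chosen with earlier results of these data known. The symbol Ctla4 stood on 2 rows, of which the one whose identifier carries it in GENCODE was used. Lengths, positions and 31-base windows came from GENCODE M21 (GRCm38), which held 15866 of the 15944 genes, and promoters from RefSeq (GRCm38.p6), with 4 of the 5 genes matched. The alternatives were other pseudocounts, scalings, a filter, array weights, robust variances, each library left out and a replicate block.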

Additional observations from a re-analysis of the deposited data

How the results depend on the processing

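With pseudocounts of 0.1 and 5, upper-quartile scaling, column totals, a mean of at least 10 and robust variances, the number of called genes stayed between 84 and 103, Lgals1 and Lgals3 were called, and Lgals8, Lgals9 and Lgals3bp were not; upper-quartile scaling called 2 counter-receptors, Pdcd1 and Tnfrsf9. Array weights, which gave RORγt+ replicate 3 a weight of 0.199, called 358 genes. Among them were 5 counter-receptors, Cd47 higher and Nrp1, Pdcd1, Tnfrsf9 and Lag3 lower in RORγt+ Tregs. That fit also called 1 glycan enzyme (Mgat5, lower) and 1 intracellular partner (Slc38a9, higher). Of the 12 effector Treg genes it called, Tigit was lower (-0.93, limma adjusted p = 0.0332) and the rest were higher. Leaving out 1 library gave 4 to 174 called genes, 0 to 2 of the 5 members, 0 to 5 counter-receptors, 0 to 1 glycan enzymes and 0 to 9 effector Treg genes. The log2 fold change of Lgals1 then lay between 1.06 and 1.19, that of Lgals3 between 1.85 and 2.25, and that of Lgals8 between -0.043 and 0.18, reversed without CCR6+RORγt- replicate 1. The cause was not tested. Adding a replicate block left 1 gene called over all genes (1130 at an unadjusted p under 0.05), with 0 of the 5 members, 0 counter-receptors and 0 effector Treg genes. In that fit the log2 fold changes of Lgals1 and Lgals3 were 1.10 (adjusted p = 0.173) and 2.04 (adjusted p = 0.187). Deviations from the group mean correlated at -0.105, -0.022 and -0.184 between libraries of the same number, and none correlated best with its own number. The labels state no pairing or batch. With 3 libraries per sort, these correlations cannot show whether libraries of the same number share one. Lgals3 rests on about 37.1 to 219 reads per library, which limits its precision.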

Other observations

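Genes of activated, effector Tregs, among which Lgals1 and Lgals3 are often counted, were read beside the galectins. Their list was drawn up with earlier results of these data known, so its counts and median are descriptive and no independent evidence. Of 27 listed, all 27 were measured, of which 5 rose in RORγt+ Tregs, 0 fell and 22 did not pass limma over all genes, with a median log2 fold change of 0.50 beside -0.011 over all genes, of which 0.564% were called and 0.32% called higher. The sorts did not overlap in 12 members higher and 5 lower in RORγt+ Tregs, beside 18.1% of all genes in either direction. The 5 lower ones were Nt5e, Cd44, Tigit (-0.87), Batf (-0.54) and Areg (-1.06), none of them called without array weights. Those of them outside the abundant genes were named after their values were seen. The members that rose were the calcium-binding protein genes S100a4 (log2 fold change 2.57, adjusted p = 0.00613) and S100a6 (1.85, adjusted p = 0.0235), the LIM protein gene Crip1 (0.85, adjusted p = 0.0335), the integrin subunit gene Itgae (1.49, adjusted p = 0.012) and the chemokine receptor gene Ccr2 (3.66, adjusted p = 0.0139). Crip1 had 2794, 2920 and 3400 normalized counts in RORγt+ Tregs, against 1694, 1678 and 1668 in CCR6+RORγt- Tregs. The intermediate filament gene Vim (0.72, adjusted p = 0.059), the annexin partner gene S100a10 (0.69, adjusted p = 0.0816) and the scaffold gene Ahnak (0.77, adjusted p = 0.332) did not pass, and neither did Nt5e, which encodes the ectoenzyme CD73 (-0.35, adjusted p = 0.304). Without RORγt+ replicate 3 the number that rose was 9, in a fit that called 174 of all 15944 genes, 85 of them higher. It was 1 without CCR6+RORγt- replicate 2 (S100a4), where 10 genes were called, 9 of them higher. The number was 0 without any of the other 4 libraries, in fits that called 4 to 8 genes.

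Interferon-stimulated genes were read beside Lgals9 and Lgals3bp. All 20 listed were measured, and 0 passed limma over all genes, while 5 had an unadjusted p under 0.05, beside 10.9% of all genes. The median log2 fold change was 0.020, and the summed level ranged from 23150 to 24650 normalized counts in RORγt+ libraries and from 24400 to 25530 in CCR6+RORγt- libraries. Zbp1, Irf9 and Ddx58 had log2 fold changes of 0.28, 0.13 and 0.037.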
